A study of Mus musculus with 9 samples.

Results

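Cells sorted from mouse prostate for 4 surface proteins, CD44, CD133, Sca-1 and CD117, were compared on each array with a pool of mouse RNA, to describe which genes these cells hold above or below the pool. The arrays were taken by their sort label: all 3 arrays labelled CD44+CD133+Sca-1+CD117+, of 9 arrays in the series, entered. The cells came straight from the prostates of BL6 mice, separated by antibody staining and fluorescence-activated cell sorting (FACS), and no treatment, age or genetic change is named. The series text places both sorted fractions in the lineage-negative (Lin-) gate, whose antigens are not named there. The labels call the marker-positive cells stem cells. The other 6 arrays hold cells negative for the same 4 proteins, called non-stem cells, and are used below only as context. Every array carried the cells in the red dye Cy5 and the pool, Universal Mouse Reference from Stratagene, in the green dye Cy3. The cell RNA was amplified before labelling, per the labels' protocols, and the labels do not say whether the pool was amplified alike. The 3 arrays carry 1 sample number in their labels, and nothing names separate mice, so the p-values below reflect array-to-array spread alone, possibly technical.

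The prostate gland is lined by secretory luminal cells over a layer of basal cells, set in a stroma of smooth muscle, fibroblasts, vessels and resident immune cells. The 4 sort proteins are not confined to one lineage: Kit (CD117), the receptor of stem cell factor, is also carried by mast cells, Sca-1 (gene Ly6a) by vessels and many progenitors, CD133 (gene Prom1) by luminal surfaces, and CD44, a hyaluronan receptor, by leukocytes and basal cells. The Stratagene pool is made from RNA of mouse cell lines, which divide in culture. A log2 ratio of 1 below means that the cells' signal was double that of the pool, relative to the centre of all genes on that array. A ratio here is thus a statement about cells and pool together, and a gene can stand high because the pool holds little of it. No dye swap was made, so any dye effect stays in every ratio. In a sorted population, fewer cells of a type and less RNA per cell cannot be told apart.

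The pool channel was nearly the same on every array and the cell channel was not. Background-corrected log2 Cy3 signals, not normalized, correlated at 0.998, 0.997 and 0.997 between arrays 1 and 2, 1 and 3, and 2 and 3. For Cy5 the same correlations across probes were 0.972, 0.849 and 0.836. Array 3 stood apart. Its Cy5 signal was well above background for 45.5% of probes, against 67.3% and 69.3% on arrays 1 and 2. Cy3 reached 74%, 80.6% and 76.5% on the 3 arrays. The median Cy5 signal above background was 30.3 intensity units on array 3, against 209 and 181. Its log2 ratios correlated at 0.612 and 0.585 with those of arrays 1 and 2, which reached 0.924 with each other, and at 0.683 and 0.682 with marker-negative arrays 4 and 6. The 3 arrays lay on different slides, and those of arrays 1 and 2 also held marker-negative arrays. Results are therefore given for each array, and for several lists also without array 3.

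**Figure D1:**
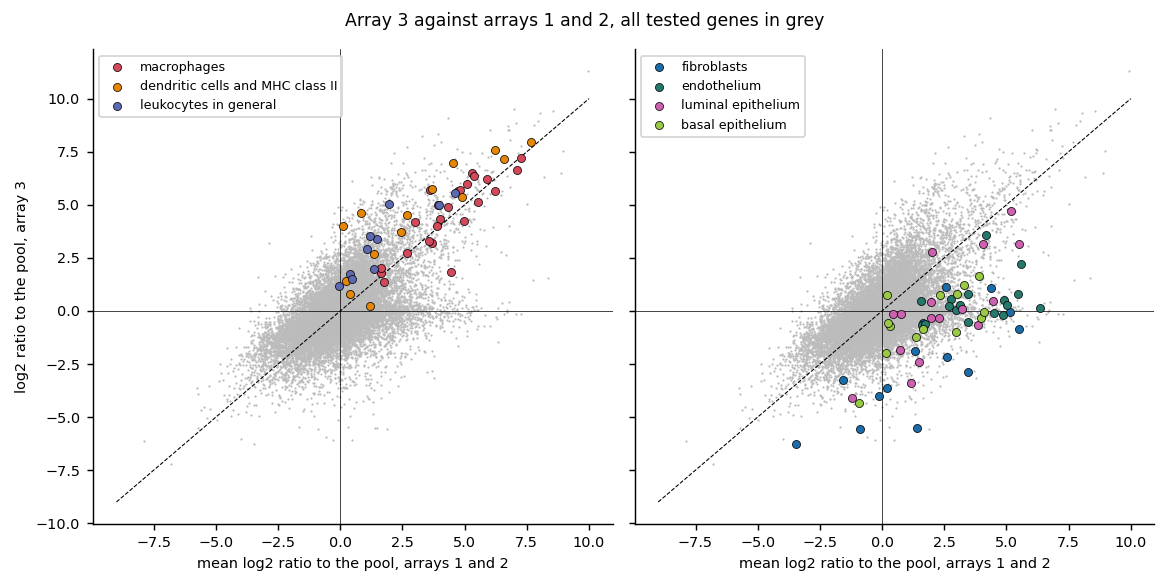
Log2 ratio of cells over pool on array 3 (vertical axis) against the mean of arrays 1 and 2 (horizontal axis) for each of the 21849 tested genes in grey, with members of named lists coloured and the dashed line marking equal values. Leukocyte, macrophage and antigen-presentation genes lie at or above the line for the most part, while fibroblast, endothelial and epithelial genes lie below it, many near 0 or negative on array 3.

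Of 21849 genes tested by limma against a log2 ratio of 0, 2106 were higher in the cells (9.64%) and 3064 were lower (14.0%), at an adjusted p under 0.05. The size of the change differed by direction. At least 16-fold differences numbered 245 among the higher and 32 among the lower genes, and at least 2-fold differences 1882 and 2482. The sign was shared by all 3 arrays for 5165 of the 5170 called genes, against 14860 of all genes tested. A call tests the mean of these same 3 ratios, so this agreement largely follows from the call and is no separate evidence. A probe was tested if either channel was well above background on 2 of the 3 arrays. Probes that passed through their bright channel alone were thus selected in part for a difference, though not all of them were called. Without array 3 the counts became 5785 higher and 5524 lower, and without array 1 they were 616 and 402. Of the 172 called genes named with a value, 114 kept the call whichever array was left out, and each with an adjusted p under 0.015 was among them. Of 63 such genes with more than 1 tested probe, 38 had every other probe called in the same direction, 25 did not, and 5 had one called in the opposite direction. The shares of 9.64% and 14.0% are the background for each count below of list members called with all 3 arrays. Counts without array 3 have a larger background, the 5785 higher and 5524 lower of the 21849 genes.

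Among genes measured in both channels on all 3 arrays, the 15 furthest above the pool included secretory products of the male accessory glands, products of myeloid cells and a globin. Defb50, a beta-defensin, had log2 ratios of 8.13, 8.96 and 9.42 on arrays 1, 2 and 3 (mean 8.83, SE 0.35, adjusted p = 0.00742; probe at chr8:20614069-20614128, build mm7). Svs5, a seminal vesicle secretory protein, read 7.87, 7.73 and 8.75 on the same scale (mean 8.11, SE 0.30, adjusted p = 0.00742). Tgm4, the prostate transglutaminase that helps to form the copulatory plug, read 7.34, 7.16 and 7.76 (mean 7.42, SE 0.25, adjusted p = 0.00742). All 3 genes were far above the pool on every array, with array 3 the highest. The chemokine Ccl6 had log2 ratios of 8.22, 7.88 and 9.32 (mean 8.47, SE 0.37, adjusted p = 0.00814; probe at chr11:83658400-83658459, mm7). Cd83, a surface protein of activated antigen-presenting cells, read 8.19, 7.72 and 8.95 (mean 8.29, adjusted p = 0.00742), and Clec10a, a galactose-binding lectin of macrophages and dendritic cells, 8.15, 7.19 and 7.98 (mean 7.77, adjusted p = 0.00742). In these myeloid genes, too, no array came near the level of the pool. The interleukin gene Il1b read 6.73, 6.85 and 8.54 (mean 7.37, adjusted p = 0.00845), the anti-apoptotic Bcl2a1b 7.23, 6.89 and 8.87 (mean 7.66, adjusted p = 0.00845) and the lectin Clec4b1 7.05, 6.44 and 8.52 (mean 7.34, adjusted p = 0.00845), each highest on array 3. Bcl2a1b has near-identical copies, so its probe may read more than 1 gene.

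Lyve1, the hyaluronan receptor of lymphatic vessels and of some tissue macrophages, had a mean log2 ratio of 7.25 (adjusted p = 0.00845), and F13a1, the coagulation factor XIII A subunit made by macrophages and platelets, 6.96 (adjusted p = 0.00845). The other Lyve1 probe read 2.86, which was not called (adjusted p = 0.0526). Ear1 and Rnase2a, ribonucleases of the eosinophil-associated family, had means of 7.41 and 6.85, with arrays 1 and 2 close together and array 3 higher in both. Genes of this family are alike in sequence, and their probes may not separate them. The beta-globin Hbb-bt read 7.21, 7.06 and 7.43 (mean 7.24, adjusted p = 0.00742), and its other 3 probes had means of 2.61, 2.95 and 5.98. The remaining gene of the 15, 9530003J23Rik, had a mean of 7.23.

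**Figure D2:**
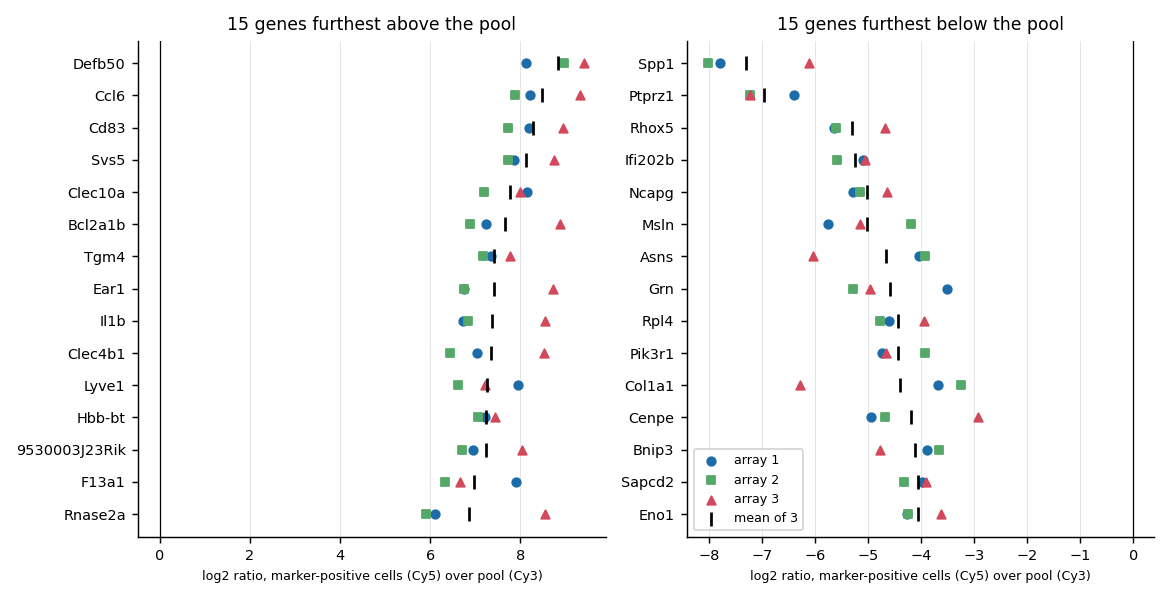
Log2 ratio of cells over pool (horizontal axis) on arrays 1, 2 and 3 for the 15 called genes with the largest positive and the 15 with the largest negative mean among those measured in both channels on all 3 arrays; black ticks mark the means. The means run from 8.83 (Defb50) to 6.85 (Rnase2a) on the left and from -7.30 (Spp1) to -4.05 (Eno1) on the right.

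For 27 called genes the pool was not well above background on any array, so the fold has only a lower bound. That bound sets the cells' mean against the pool's mean, by the probe used. A pool signal below the dimmest signal still well above background on its array was first raised to that level. Where no pool signal lay below that level, the bound is the measured fold itself. This was so for Fam25c, Rgs18, Bcas3os2, Nhlh1 and Cyp2c39. Bounds of lower genes were set alike with the channels exchanged, and those of Cct6a, Ssxb1 and Myl1 equal the measured fold. 9530002B09Rik was at least 31.1-fold higher (adjusted p = 0.00868). Ear10, another ribonuclease of the eosinophil-associated family, was at least 24-fold higher, with log2 ratios of 3.71, 3.40 and 6.91. Ccr2, the chemokine receptor of inflammatory monocytes, was at least 20.1-fold higher, with log2 ratios of 3.24, 3.34 and 6.65. In both genes array 3 exceeded arrays 1 and 2 by more than 3 log2 units. Another Ccr2 probe had a mean of 2.01 and was not called (adjusted p = 0.0802). Epithelial products gave smaller bounds: at least 6.43-fold for the tight junction gene Cldn8, 6.29-fold for the beta-defensin Defb1 and 4.85-fold for the seminal vesicle gene Svs2, and there array 3 was the lowest. Bounds for Fam25c and Rgs18 were 7.22-fold and 7.08-fold, and for Bcas3os2, Nhlh1, Dcaf12l1 and Cyp2c39 between 4.41-fold and 6.35-fold. Another Rgs18 probe was called higher at a mean log2 ratio of 1.40 (adjusted p = 0.0329).

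Macrophage genes had the largest share of calls among the cell type lists with over 10 genes tested. Of 24 tested, 22 were higher than the pool, with a median log2 ratio of 4.40 against 0.13 over all genes. Their medians were 4.86, 3.78 and 4.95 on arrays 1, 2 and 3, so array 3 did not fall behind. The scavenger receptor Cd163 read 6.19, 5.59 and 6.21 (mean 5.99, adjusted p = 0.00828), the mannose receptor Mrc1 7.17, 5.30 and 5.63 (mean 6.03, adjusted p = 0.0104) and the folate receptor Folr2 5.54, 5.20 and 6.34 (mean 5.70, adjusted p = 0.00845). These 3 genes mark resident macrophages of many tissues, and no array lay below 5 log2 units. The complement C1q chains, which tissue macrophages make, had means of 5.69 (C1qa), 5.05 (C1qb) and 5.12 (C1qc). Lysozyme, Lyz2, read 5.52, 4.64 and 5.98 (mean 5.38, adjusted p = 0.00845). Csf1r, the receptor of macrophage colony-stimulating factor, read 4.69, 3.33 and 4.34 (mean 4.12, adjusted p = 0.0115), but its other 2 probes read 0.17 and 0.81 and were not called. Timd4, a receptor for dying cells, and Fcna, a ficolin, had means of 3.92 and 4.72. The scavenger receptors Marco (mean 1.63, adjusted p = 0.0807) and Msr1 (mean 1.76, adjusted p = 0.0638) did not pass, and another Msr1 probe was called lower at -1.32 (adjusted p = 0.0255). Cd14, a co-receptor for bacterial lipopolysaccharide, was called but differed widely between arrays, at 5.21, 3.67 and 1.84.

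Genes of antigen presentation were high as well, and highest on array 3. Of 14 dendritic cell and MHC class II genes tested, 9 were higher than the pool (median 3.09), and the list's medians were 3.11, 2.11 and 4.57 on the 3 arrays. The class II chains H2-Aa, H2-Ab1 and H2-Eb1, which present peptides to helper T cells, had log2 ratios of 6.34, 6.09 and 7.60, of 4.96, 4.82 and 5.38, and of 6.70, 6.46 and 7.17. Their invariant chain Cd74 read 3.98, 3.36 and 5.73 (mean 4.36, adjusted p = 0.016) and the peptide-exchange subunit H2-DMa 4.68, 4.41 and 6.97 (mean 5.35, adjusted p = 0.0147). In all 5 genes array 3 gave the largest ratio. Ciita, the transcriptional activator of class II genes, was near the pool on arrays 1 and 2 and high on array 3, at 0.10, 0.09 and 4.01 (adjusted p = 0.268). Clec9a, a receptor of cross-presenting dendritic cells, showed the same split at 0.38, 1.30 and 4.62, with the pool not well above background, and was not called (adjusted p = 0.125). The integrin Itgax, known as CD11c, read 2.73, 2.63 and 4.51 (mean 3.29, adjusted p = 0.0207), and Ccr7, the receptor that leads dendritic cells to lymph nodes, 3.49, 1.41 and 3.74 (mean 2.88, adjusted p = 0.0292). MHC class I genes were raised less: 5 of 8 passed, with a median of 1.29, among them B2m, the light chain of class I, at a mean of 1.24 and the immunoproteasome subunit Psmb9 at 2.46.

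Mast cell genes, like Kit itself a feature of that lineage, were high. Of 13 tested, 7 were higher than the pool and 1 was lower, with a median of 3.31 and array medians of 4.19, 3.23 and 3.10. The granule carboxypeptidase Cpa3 read 6.63, 5.74 and 7.62 (mean 6.66, adjusted p = 0.00853), the chymase Cma1 6.23, 5.92 and 7.32 (mean 6.49, adjusted p = 0.00845) and the protease Mcpt4 4.31, 4.11 and 5.02 (mean 4.48, adjusted p = 0.00845). All 3 were highest on array 3. Fcer1a, the alpha chain of the high-affinity IgE receptor, read 4.19, 3.23 and 5.23 (mean 4.22, adjusted p = 0.015), and the tryptase Tpsb2 2.90, 2.12 and 3.10 (mean 2.71, adjusted p = 0.0171). Hdc, the enzyme that makes histamine, was high on arrays 1 and 2 but not well above background on array 3, at 5.18, 4.62 and 0.13 (adjusted p = 0.084). Il1rl1, the receptor for interleukin-33, was the gene below the pool, at -2.27, -2.77 and -0.74 (mean -1.92, adjusted p = 0.0449). Gata2 (mean 4.67, adjusted p = 0.00845), a transcription factor of mast cells, and the granule proteoglycan Srgn (mean 4.77, adjusted p = 0.00845) passed too, and both are also expressed in other cells of the tissue.

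The general leukocyte genes were high in part. Of 10, 5 were higher than the pool (median 1.82), and array 3 exceeded arrays 1 and 2 in all 10, against 50.1% of all genes tested. Cd52, a small surface glycoprotein of leukocytes, read 4.58, 4.65 and 5.53 (mean 4.92, adjusted p = 0.00845), and the lysosomal protein Laptm5 4.35, 3.57 and 4.98 (mean 4.30, adjusted p = 0.0108). Ptprc, which encodes CD45, read 0.94, -0.16 and 1.74 by its brightest probe and was not called (adjusted p = 0.185). Its other 3 probes lay below the pool at -0.48, -0.93 and -0.52, of which the last was called (adjusted p = 0.0266). Among T and NK cell genes 3 of 13 were higher and 2 lower, with array medians of 0.32, 0.32 and 1.47. Il2rb, the interleukin-2 receptor beta chain, read 2.22, 2.34 and 5.99 (mean 3.52, adjusted p = 0.0462), and Nkg7, a cytotoxic granule protein, 1.55, 2.15 and 5.65 (adjusted p = 0.0628). The T cell receptor chain Cd3g and the kinase Lck were below the pool, at means of -2.50 and -1.82. In the B cell list, the antibody chain Ighm was 5.36, 3.83 and 7.06 (mean 5.42, adjusted p = 0.0169), whereas Ms4a1, which encodes CD20, and Jchain lay below the pool at means of -3.37 and -2.38.

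Granulocyte genes above the pool numbered 2 in the neutrophil list and 2 in the eosinophil list, both short, against 9.64% of all genes. Of 7 neutrophil genes tested, 2 were higher: Mmp9, a matrix metalloproteinase, at 4.77, 2.80 and 2.23 (mean 3.26, adjusted p = 0.0256), with another probe at 0.41 that was not called (adjusted p = 0.56), and Csf3r, the receptor of granulocyte colony-stimulating factor, at least 3.63-fold (adjusted p = 0.0133). The calprotectin subunit S100a9 was high on array 1 alone, at 5.62, 0.95 and 1.14, and was not called. Of 5 eosinophil genes the 2 that passed were the ribonucleases Ear1 and Rnase2a given above, while Epx, the eosinophil peroxidase, was not well above background in the cells on any array. Among 5 erythroid genes 1 passed, the alpha-globin Hba-a1 at 2.26, 2.30 and 2.81 (mean 2.45, adjusted p = 0.0155), beside the beta-globin Hbb-bt above. Of 6 platelet genes 1 was called, Itga2b, the platelet integrin alpha chain, which lay below the pool at -1.03, -1.46 and -0.91 (mean -1.14, adjusted p = 0.0226).

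**Figure D3:**
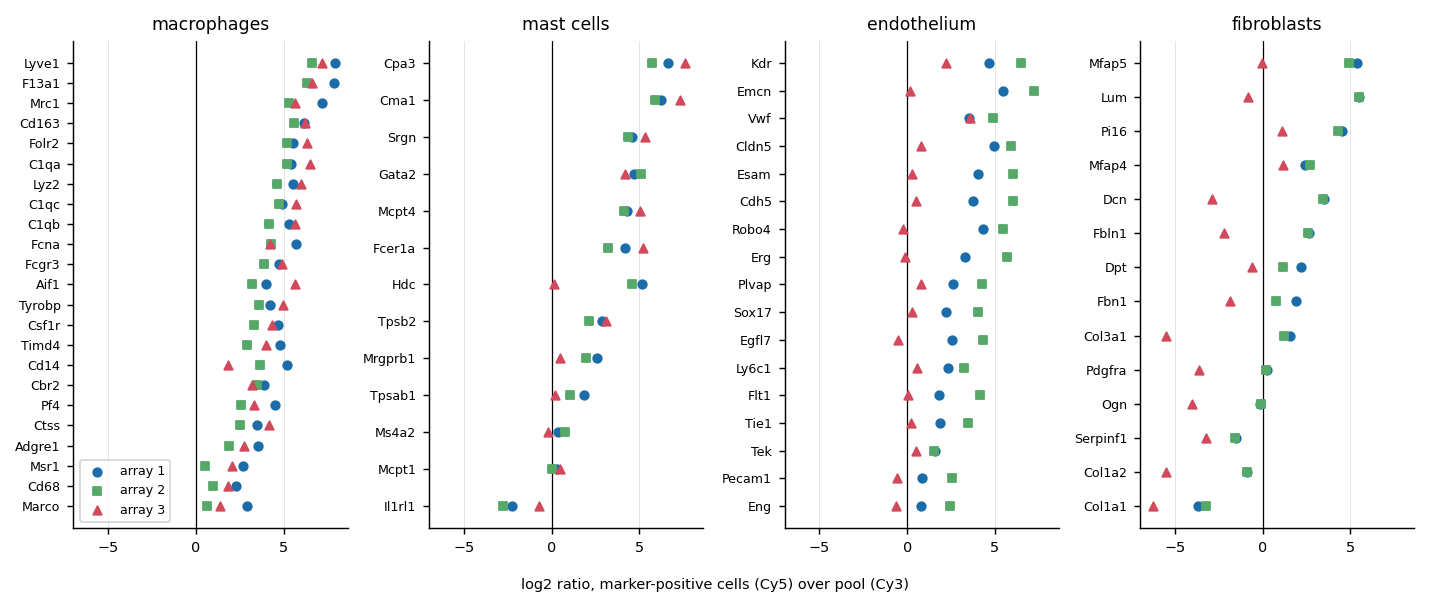
Log2 ratio of cells over pool (horizontal axis) on arrays 1, 2 and 3 for the tested genes of the macrophage, mast cell, endothelial and fibroblast lists, ordered by their mean, without a macrophage gene that is not reported here. Array 3 lies to the left of both other arrays for 3 of the macrophage genes, Cd14 with the widest gap, while in the endothelial and fibroblast genes array 3 lies to the left of arrays 1 and 2, with the exception of Vwf.

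Chemokine genes, and a few genes of inflammatory cytokines, were high. Of 12 CC chemokines, which attract monocytes, eosinophils and lymphocytes, 7 were higher than the pool (median 3.63). Besides Ccl6, Ccl8 read 6.34, 4.63 and 5.71 (mean 5.56, adjusted p = 0.00979), Ccl4 4.49, 4.53 and 5.93 (mean 4.98, adjusted p = 0.00999) and Ccl9 3.94, 2.77 and 3.79 (mean 3.50, adjusted p = 0.0129). Ccl17, a product of dendritic cells, was highest on array 3, at 2.15, 3.16 and 6.51 (mean 3.94, adjusted p = 0.0408). Ccl11, also called eotaxin, was high on arrays 1 and 2 and at the pool's level on array 3, at 6.70, 6.51 and -0.15 (adjusted p = 0.0926). Among 8 CXC chemokines 5 passed (median 3.52), including Cxcl16 at 5.08, 4.89 and 5.01 and the interferon-induced Cxcl9 at 4.32, 4.57 and 6.14. Cxcl13, a B cell attractant, repeated the pattern of Ccl11 at 5.38, 5.05 and -0.20 (adjusted p = 0.0979). Of 11 cytokines 3 were higher: Il1b, Tnf at 2.87, 1.66 and 2.12 (mean 2.22, adjusted p = 0.0236) and oncostatin M, Osm, at 3.47, 1.84 and 2.41 (mean 2.57, adjusted p = 0.0239). Il6 read 5.58, 6.48 and -0.73 and was not called (adjusted p = 0.121), and Kitl, the ligand of Kit, 2.51, 3.02 and -0.25 (adjusted p = 0.124). In the complement list 3 of 9 passed, properdin Cfp at a mean of 4.19, factor B Cfb at 3.52 and the C3a receptor C3ar1 at 3.08. Without array 3, 8 of the complement genes and 8 of the cytokines were higher.

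Products of the prostate and the seminal vesicle stood as high as the myeloid genes and held on all 3 arrays. Of 9 prostate secretory genes tested, 8 were higher than the pool (median 4.39, array medians 4.85, 4.94 and 4.38). Pbsn, the androgen-driven probasin whose promoter is widely used to target the prostate, read 8.37, 7.98 and 6.30 (mean 7.55, adjusted p = 0.00845), and Pate4 8.97, 8.94 and 7.55 (mean 8.49, adjusted p = 0.00828). The pool was well above background on 2 of the 3 arrays for both. Azgp1, a zinc-binding glycoprotein, read 4.85, 4.43 and 3.90 (mean 4.39, adjusted p = 0.00979), and the glycoprotein Ceacam10 4.46, 4.40 and 3.83 (mean 4.23, adjusted p = 0.00938). The androgen-regulated protease Tmprss2 read 3.28, 3.60 and 4.38 (mean 3.75, adjusted p = 0.0125). Its other probe read 1.81 and was not called (adjusted p = 0.121). Microseminoprotein Msmb differed more between arrays, at 2.80, 4.94 and 1.56 (mean 3.10, adjusted p = 0.0391). Of 6 seminal vesicle genes 4 passed (median 4.98), among them Svs4 at 8.78, 8.99 and 6.51 and Svs6 at 5.86, 5.52 and 7.45. Svs3a read 1.29, 2.80 and 6.96 and was not called (adjusted p = 0.0745). Which gland each product of either list came from was not tested, so the division between the lists is nominal.

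Epithelial structural genes behaved differently from the secretory products. Of 16 luminal genes 4 were higher than the pool: the claudins Cldn3 (5.17, 5.22 and 4.72) and Cldn7 (3.97, 4.12 and 3.15), which form tight junctions, the cadherin Cdh1 (5.51, 5.47 and 3.14) and Cd24a (1.79, 2.20 and 2.77). In 15 of the 16, array 3 lay below both other arrays, against 36.1% of all genes, and the list's medians were 1.72, 2.43 and -0.14. The luminal keratin Krt8 read 1.55, 1.45 and -2.40 (adjusted p = 0.868), and the prostate transcription factor Hoxb13 3.81, 3.89 and -0.66 (adjusted p = 0.143). Hoxb13 was not well above background in Cy5 on array 3. Without array 3, 15 luminal genes were higher and 1 was lower. Basal genes followed the same course: 3 of 14 were called, the keratins Krt5 (3.29, 3.31 and 1.22), Krt14 (2.93, 3.13 and 0.77) and Krt17 (3.90, 3.92 and 1.64), and 8 without array 3. The calls of these 3 keratins were lost with median centring in place of loess (adjusted p = 0.13, 0.215 and 0.0945) and when array 1 or 2 was left out. Trp63, the p63 transcription factor that basal cells need, read 1.81, 2.85 and 0.75 (adjusted p = 0.0549), and the basal keratin Krt15 4.13, 4.08 and -0.03 (adjusted p = 0.0914). Of 12 genes of the proximal ducts and urethra 5 passed, and 11 were higher without array 3. They were led by the secreted protein Wfdc2 at 4.47, 4.47 and 4.14 (mean 4.36, adjusted p = 0.00845). Psca, the prostate stem cell antigen, passed at 2.61, 3.40 and 1.29 (mean 2.43, adjusted p = 0.0325). Of 6 neuroendocrine genes 1 was called, the granin Scg2, below the pool at a mean of -0.38 and not well above background in the cells.

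Vessel genes were high on arrays 1 and 2 and low on array 3. Of 17 endothelial genes 2 were called higher, and 15 without array 3, with array medians of 2.62, 4.32 and 0.27. Kdr, a receptor of vascular endothelial growth factor, read 4.69, 6.50 and 2.19 (mean 4.46, adjusted p = 0.03), and Vwf, the von Willebrand factor, 3.52, 4.87 and 3.56 (mean 3.98, adjusted p = 0.0131). Vwf was the one list member that array 3 did not place below both other arrays, and its other 2 probes read 2.60 and 0.17 and were not called (adjusted p = 0.128 and 0.232). Cdh5, the cadherin of endothelial junctions, read 3.73, 6.04 and 0.53 (adjusted p = 0.078), the sialomucin Emcn 5.46, 7.21 and 0.14 (adjusted p = 0.0866) and the claudin Cldn5 4.95, 5.95 and 0.82 (adjusted p = 0.0581). For all 3 genes array 2 exceeded array 1, and array 3 was within 1 log2 unit of the pool.

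Fibroblast and matrix genes split the arrays most. In all 14 fibroblast genes tested array 3 lay below both other arrays, and the list's medians were 2.04, 1.19 and -2.54. Dcn, the matrix proteoglycan decorin, read 3.50, 3.44 and -2.89 (adjusted p = 0.478), Col3a1, the type III collagen chain, 1.58, 1.24 and -5.52 (adjusted p = 0.664), and lumican, Lum, 5.49, 5.52 and -0.86 (adjusted p = 0.132). Arrays 1 and 2 agreed within 1 log2 unit for each gene, and array 3 was on the other side of the pool, although Lum was not well above background there. With all arrays 2 of the list were higher, Pi16 (4.49, 4.28 and 1.09) and the microfibril gene Mfap4 (2.41, 2.70 and 1.13), and 2 were lower, Col1a1 and Serpinf1. Without array 3 the calls were 8 higher and 3 lower. No gene of 14 other collagens and basement membrane genes passed in limma, with 2 at an unadjusted p under 0.05, and 7 were higher without array 3. Col14a1, a fibril-associated collagen, read 5.34, 5.23 and 0.21 (adjusted p = 0.0795). In smooth muscle and pericytes 1 of 12 was higher, the smooth muscle myosin Myh11 at 1.48, 2.70 and 0.94, and 1 was lower, Tagln at -2.69, -1.42 and -4.58.

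Detection of Cy5 on array 3 was counted in the same lists. Over all genes tested it reached 64.6%. Cy5 was well above background on array 3 for 9 of 14 fibroblast, 10 of 17 endothelial, 9 of 16 luminal and 9 of 14 basal genes, and for 24 of 24 macrophage genes. Col3a1, Dcn and Krt8, which read below the pool there, were well above background, while Lum and Hoxb13, also below the pool, were not. The shares of the fibroblast, endothelial, luminal and basal lists ran from 56.2% to 64.3%. The part of detection in the difference between arrays was not tested.

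**Figure D4:**
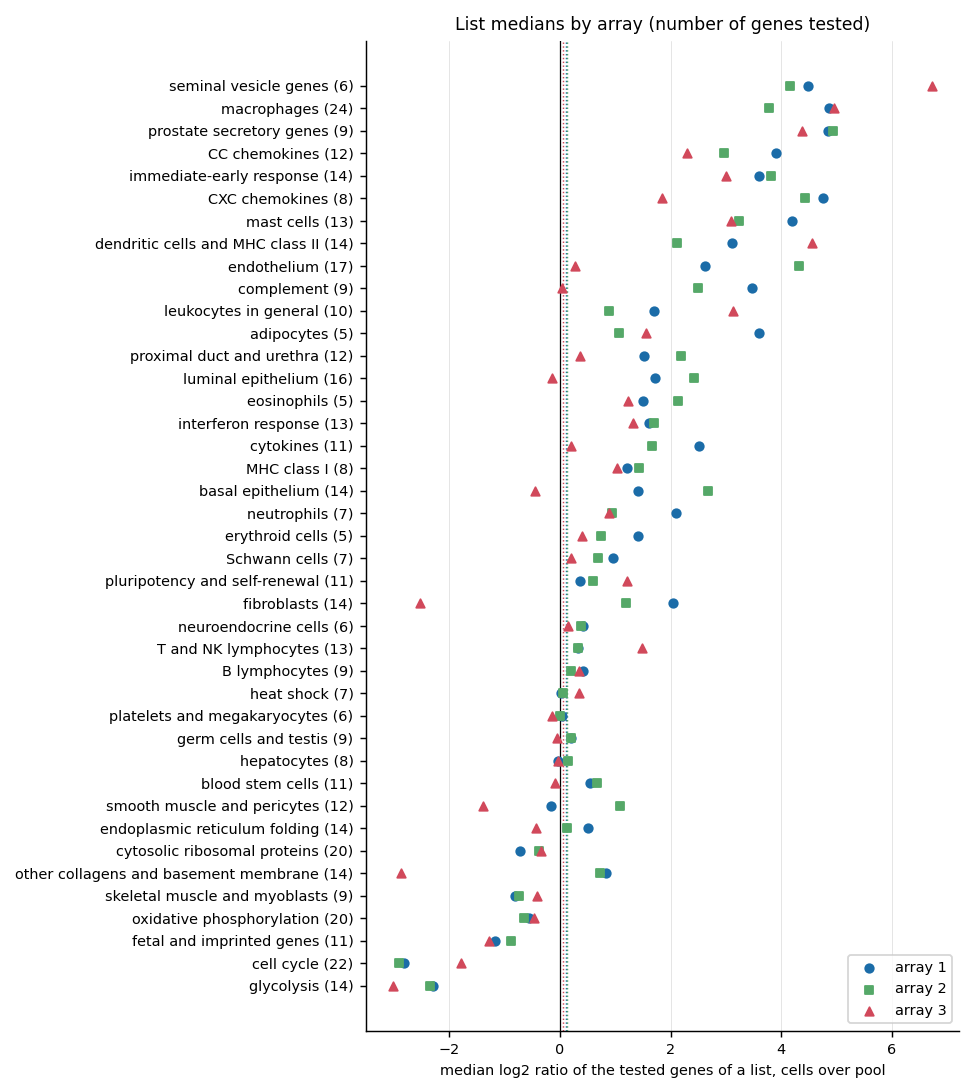
Median log2 ratio of cells over pool (horizontal axis) for the tested genes of each list with 5 or more, on arrays 1, 2 and 3; the number of genes is in brackets, and dotted lines mark the medians of all genes tested. Macrophage, prostate secretory and seminal vesicle lists lie above 3 on every array, cell cycle and glycolysis lists lie below -1 on every array, and fibroblast and collagen lists lie above 0 on arrays 1 and 2 and below -2 on array 3.

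The 4 genes behind the sort differed in how far they stood above the pool. Kit read 4.41, 3.60 and 6.56 (mean 4.85, SE 0.64, adjusted p = 0.0184; probe at chr5:75074515-75074574, mm7, forward strand) and was the one of the 4 that passed. Ly6a read 2.45, 2.91 and 0.53 (adjusted p = 0.0567; probe at chr15:75075673-75075732, reverse strand). Prom1 read 2.41, 2.89 and 0.19 (adjusted p = 0.0743; probe at chr5:43314657-43314716, reverse strand), and neither the pool on any array nor the cells on array 3 were well above background there. Cd44 read 1.21, 0.48 and 0.84 (adjusted p = 0.0708; probe at chr2:102663537-102663596, reverse strand). Other Cd44 probes had means of 0.01 and 0.33 and were not called (adjusted p = 0.921 and 0.477). Array 3 held the highest value of Kit and the lowest of Ly6a and Prom1. The exons at these probe positions were not analysed here. Without array 3, Ly6a (adjusted p = 0.00567) and Prom1 (adjusted p = 0.00555) passed as well. The marker-negative arrays ran from 0.46 to 3.34 for Kit, from -3.27 to -0.64 for Ly6a, from 1.05 to 3.29 for Prom1 and from -2.01 to -0.58 for Cd44.

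Regulators of stem cells in other systems gave calls near or below the shares of all genes. Of 11 blood stem cell genes 1 was called, the transcription factor Tal1 at 1.15, 2.80 and 1.52 (mean 1.82, adjusted p = 0.0421), a share near the 9.64% of all genes. The list's array medians were 0.55, 0.66 and -0.09, and 3 were called without array 3. Procr, the endothelial protein C receptor, read 3.45, 3.31 and -0.60 (adjusted p = 0.143) and Cd34 0.93, 1.36 and -3.50 (adjusted p = 0.777). Both are also vessel genes, and in both array 3 lay below arrays 1 and 2. The array 3 median was 0.27 for the endothelial list and -2.54 for the fibroblast list. Of 11 pluripotency and self-renewal genes, Klf4 was higher at 2.46, 1.90 and 1.39 (mean 1.92, adjusted p = 0.0218) and the Polycomb gene Bmi1 lower at -2.10, -1.65 and -1.21 (mean -1.65, adjusted p = 0.0298). Pou5f1, which encodes Oct4, read 1.37, 1.33 and 4.35 (adjusted p = 0.0694), and Nanog was not well above background in the cells on any array.

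Transcripts of the immediate-early response, which cells switch on within minutes of a stimulus, were high. Of 14 genes 11 were higher than the pool, with a median of 3.58 and array medians of 3.61, 3.81 and 3.01. Fos read 4.02, 5.04 and 4.39 (mean 4.49, adjusted p = 0.00845), Fosb 5.26, 5.51 and 4.34 (mean 5.04, adjusted p = 0.00845), and Nr4a1, an orphan nuclear receptor, 3.90, 4.58 and 3.19 (mean 3.89, adjusted p = 0.0114). Dusp1, a phosphatase that limits MAP kinase signalling, read 3.60, 3.46 and 3.10 (mean 3.39, adjusted p = 0.00868) and the RNA-binding Zfp36 3.61, 3.50 and 2.99 (mean 3.37, adjusted p = 0.00933). In 12 of the 14 array 3 lay below both other arrays, against 36.1% of all genes, and the list's array means were 3.31, 3.71 and 2.41. Klf2 was called higher by its brightest probe, at a mean of 3.85, and lower by another, at -2.62 (adjusted p = 0.0282). In the heat shock list the inducible Hspa1a read 6.21, 6.21 and 7.43 (mean 6.61, adjusted p = 0.00845), with near-identical copies that its probes may share, and its co-chaperone Dnajb1 2.03, 2.61 and 2.18 (mean 2.27, adjusted p = 0.0135). The mitochondrial chaperonin Hspd1 was lower, at -1.13, -1.38 and -1.71 (mean -1.41, adjusted p = 0.0231). Interferon response genes gave 6 higher and 1 lower of 13 (median 1.32), with the membrane protein Ifitm3 at 3.06, 3.31 and 2.92 (mean 3.10, adjusted p = 0.00845) and the ubiquitin-like Isg15 at 2.49, 3.31 and 1.54 (mean 2.45, adjusted p = 0.0244).

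The genes furthest below the pool encode secreted and surface proteins, enzymes of metabolism and proteins of cell division. Spp1, the secreted phosphoprotein osteopontin, had log2 ratios of -7.79, -8.01 and -6.11 (mean -7.30, SE 0.44, adjusted p = 0.00845; probe at chr5:103631152-103631211, mm7). Rhox5, an X-linked homeobox gene, read -5.63, -5.60 and -4.67 (mean -5.30, SE 0.33, adjusted p = 0.00845), and Msln, the surface protein mesothelin, -5.76, -4.18 and -5.15 (mean -5.03, SE 0.38, adjusted p = 0.00998). No array came within 4 log2 units of the pool for these 3 genes. Ifi202b, an interferon-inducible DNA sensor, had a mean of -5.25, Asns, asparagine synthetase, -4.67, and Bnip3, a mitophagy receptor, -4.11. Several of the lowest genes had probes that disagreed. Ptprz1, a receptor tyrosine phosphatase, read -6.40, -7.23 and -7.23 by its brightest probe and 1.19 on average by another, and both were called (adjusted p = 0.00742 and 0.0181). Progranulin, Grn, read -4.58 and 1.98 by its 2 probes, also both called (adjusted p = 0.0116 and 0.0316). Pik3r1, the regulatory subunit of PI 3-kinase, had probe means of -4.44, -0.27, 2.54 and -3.45. Col1a1, the type I collagen chain, had probe means of -4.40, -3.12 and 2.91, and its ratios by the brightest probe were -3.67, -3.24 and -6.28. Its probe at 2.91 was not called (adjusted p = 0.0543), and both others were called lower. The direction of Ptprz1, Grn and Pik3r1 thus rests on the choice of probe, and for Col1a1 an uncalled probe went the other way. Rpl4 (-4.44), Sapcd2 (-4.07) and Eno1 (-4.05) complete the 15 lowest, with Ncapg and Cenpe below.

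Most genes of the cell division list were lower than the pool. Of 22 tested, 19 were lower, with a median of -2.48 and array medians of -2.82, -2.91 and -1.79. Array 3 lay above both other arrays in 20 of the 22, against 50.1% of all genes. Mki67, which encodes the proliferation antigen Ki-67, read -3.84, -4.33 and -2.45 (mean -3.54, adjusted p = 0.0169), and the mitotic kinase Bub1 -3.88, -4.21 and -3.51 (mean -3.87, adjusted p = 0.0104). Cyclin B1, Ccnb1, read -3.94, -3.46 and -3.13 (mean -3.51, adjusted p = 0.0116), the DNA topoisomerase Top2a -3.43, -3.84 and -3.15 (mean -3.48, adjusted p = 0.0115), and the kinase Aurka -3.36, -3.35 and -3.16 (mean -3.29, adjusted p = 0.00912). The replication genes had means of -1.94 for Mcm2, -1.73 for Mcm5 and -2.86 for Mcm6, subunits of the replicative helicase. Pcna, the sliding clamp of replication, read 0.49, 0.38 and -0.83 (adjusted p = 0.979), and E2f1 0.74, -0.31 and 1.10 (adjusted p = 0.335). Outside the list, the condensin subunit Ncapg read -5.28, -5.16 and -4.64 and the centromere kinesin Cenpe -4.94, -4.69 and -2.93. The kinetochore gene Ndc80, the spindle gene Aspm and the kinesin Kif15 were not well above background in the cells. They were at least 11.5-fold, 7.06-fold and 6.24-fold lower by the probes used. Other probes gave smaller means: -1.43 (not called) for Ncapg, -1.26 (called) and -0.27 (not called) for Aspm, and -0.94 (called) for Kif15.

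Promoters of the cell division list, which also holds uncalled genes such as Pcna and E2f1, are shown for description. Whether they bear on the low ratios was not tested. Such promoters are known for a short element called CHR, bound by the DREAM complex in resting cells and by B-Myb with MuvB in dividing cells, often beside CCAAT boxes bound by NF-Y. RefSeq (GRCm38.p6) gave promoters for 19 of the listed genes, of which the 250 bases before the start site were searched on both strands. The CHR letters TTTGAA occurred in 6 of them (31.6%), against 18.3% of all 27025 genes with a promoter, and CCAAT in 15 (78.9%), against 37.5%. The E2F letters TTCCCGC occurred in 1 (5.26%), against 4.38%. No letters of these motifs can belong to 2 of them in full, and a match is not a bound site. Shown are the 3 lowest called genes that hold both CHR and CCAAT letters in a window outside the annotated gene, with the letters of either motif, on either strand, in capitals. They are Cdc20 (chr4:118437344-118437593, reverse strand), Ccnb2 (chr9:70421555-70421804, reverse strand) and Cdk1 (chr10:69352913-69353162, reverse strand).
Cdc20: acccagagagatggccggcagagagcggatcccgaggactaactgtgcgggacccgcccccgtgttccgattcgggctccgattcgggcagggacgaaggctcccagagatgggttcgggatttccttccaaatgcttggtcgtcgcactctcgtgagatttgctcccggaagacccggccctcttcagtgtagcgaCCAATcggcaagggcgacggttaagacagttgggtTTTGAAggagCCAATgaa
Ccnb2: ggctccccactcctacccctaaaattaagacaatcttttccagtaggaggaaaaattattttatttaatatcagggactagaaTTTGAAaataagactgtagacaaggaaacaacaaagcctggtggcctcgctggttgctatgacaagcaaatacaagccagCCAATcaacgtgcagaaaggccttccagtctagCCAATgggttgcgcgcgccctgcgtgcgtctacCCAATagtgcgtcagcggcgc
Cdk1: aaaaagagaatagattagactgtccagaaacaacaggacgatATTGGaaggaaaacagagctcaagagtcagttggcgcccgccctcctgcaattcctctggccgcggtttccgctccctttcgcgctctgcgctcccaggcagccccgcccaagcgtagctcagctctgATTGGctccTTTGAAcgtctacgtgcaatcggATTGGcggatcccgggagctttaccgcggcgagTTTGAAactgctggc
Cdc20, an activator of the anaphase-promoting complex, read -3.53, -2.45 and -3.98 (mean -3.32, adjusted p = 0.0153). Ccnb2, the second B-type cyclin, read -2.61, -2.50 and -2.01 (mean -2.38, adjusted p = 0.0145). Cdk1, their kinase, read -2.69, -2.79 and -0.96 (mean -2.15, adjusted p = 0.0361), and its other probe was near the pool at -0.13 (adjusted p = 0.431).

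Glycolysis genes were lower for the most part. Of 14 genes 11 were lower than the pool, with a median of -2.57 and array medians of -2.30, -2.35 and -3.02. Eno1, enolase 1, read -4.26, -4.25 and -3.63 (mean -4.05, adjusted p = 0.00912), Gapdh -2.81, -2.82 and -3.46 (mean -3.03, adjusted p = 0.0104), and the lactate dehydrogenase chain Ldha -2.51, -2.80 and -3.15 (mean -2.82, adjusted p = 0.0106). The glucose transporter Slc2a1 read -2.47, -2.53 and -4.37 (mean -3.12, adjusted p = 0.0214) and phosphoglycerate kinase Pgk1 -2.59, -2.84 and -3.11 (mean -2.85, adjusted p = 0.00979). The hexokinase Hk2 stood on the other side of the pool at 2.90, 1.81 and 0.66 (adjusted p = 0.0552). Gpi1, glucose-6-phosphate isomerase, was lower by its brightest probe, at a mean of -2.58, and higher by another, at 1.20 (adjusted p = 0.0461). Gapdh is often used to scale samples, and here it was below the pool on every array. In oxidative phosphorylation 4 of 20 were lower, near the 14.0% of all genes, and 1 higher (median -0.67). Without array 3, 13 were lower and 2 higher, where 5524 and 5785 of all 21849 genes were. The ATP synthase beta chain Atp5b read -1.67, -1.73 and -2.23 and the complex I subunit Ndufa1 1.32, 1.62 and 2.23. Of 20 ribosomal protein genes 9 were lower and 1 higher (median -0.42), from Rpl4 at -4.61, -4.77 and -3.94 and Rpl13 at -3.05, -2.91 and -2.71 to Rpl10 at 1.09, 1.11 and 1.14. By the probes used, the list spanned more than 5 log2 units. Its array means were -0.86, -0.68 and -0.37, and array 3 lay above both other arrays in 15 of the 20, against 50.1% of all genes. Probes of a single gene also lay apart: the other Rpl13 probes read -2.53, which was called, and -0.72, which was not (adjusted p = 0.181). In protein folding of the endoplasmic reticulum, 1 of 14 genes was higher and 2 were lower, near the 9.64% and 14.0% of all genes. Xbp1, a transcription factor of the unfolded protein response, was lower at -1.86, -2.26 and -2.53 (mean -2.22, adjusted p = 0.0175). The chaperone Hsp90b1 was lower at -1.27, -1.78 and -2.35 (mean -1.80, adjusted p = 0.0227). The co-chaperone Dnajb9 was higher at 3.33, 3.21 and 0.81 (mean 2.45, adjusted p = 0.0458). Its other probes, at 1.94 and 1.76, were not called (adjusted p = 0.0866 and 0.153).

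**Figure D5:**
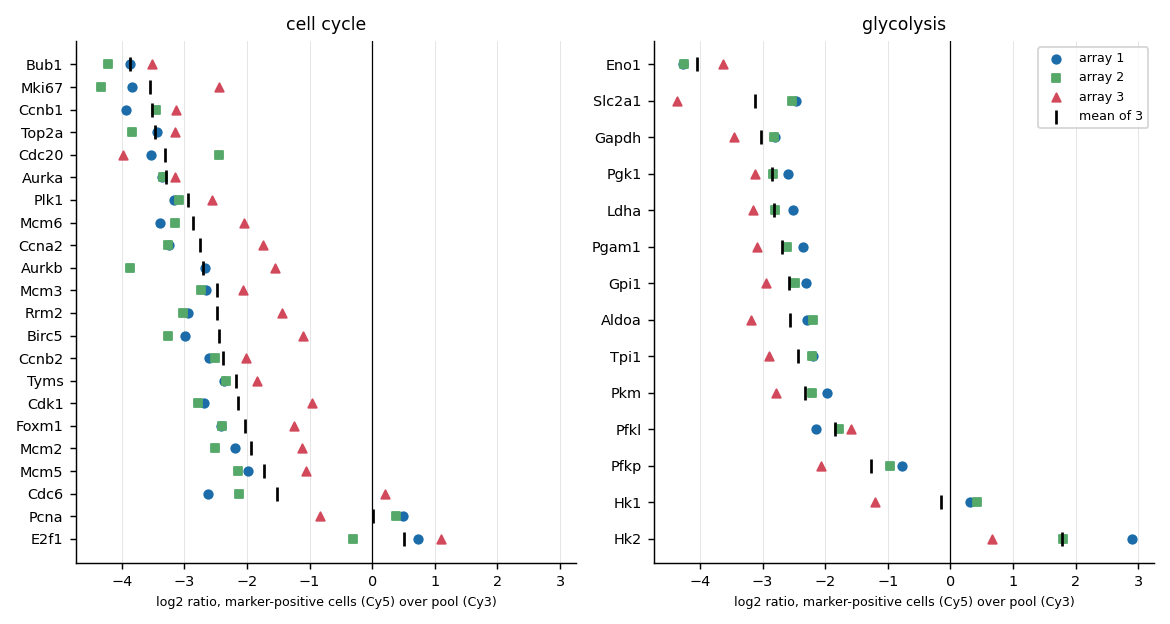
Log2 ratio of cells over pool (horizontal axis) on arrays 1, 2 and 3 for each tested gene of the cell cycle and glycolysis lists, ordered by the mean, which a black tick marks. In the cell cycle list 19 of 22 genes and in the glycolysis list 11 of 14 genes were called lower, while Cdc6, Pcna, E2f1, Hk1 and Hk2 lie at or above the pool on at least 1 array.

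Genes of fetal tissue were called in both directions. Of 11 fetal and imprinted genes 4 were lower: Hmga2, a chromatin protein of embryonic and tumour cells (-4.74, -4.37 and -4.14), the imprinted Dlk1 (-3.75, -3.50 and -3.13), the RNA-binding Igf2bp3 (-2.91, -2.30 and -1.57) and the adaptor Grb10 (-1.60, -0.89 and -2.50). Plagl1, an imprinted zinc finger gene, was higher at 3.27, 2.34 and 1.19 (mean 2.27, adjusted p = 0.0338). Its other probe read 1.02 and was not called (adjusted p = 0.118). Of 8 hepatocyte genes 1 was called, Afp, fetal liver's alpha-fetoprotein, lower at -2.40, -3.16 and -2.34 (mean -2.63, adjusted p = 0.0173). No skeletal muscle gene of 9 passed in limma, with 4 at an unadjusted p under 0.05. Of 9 germ cell genes 1 was called, Tex101, lower by a mean of only -0.42 and not well above background in the cells. Genes not well above background in the cells on any array numbered 294 among the lower calls with a bound above 1-fold. The chaperonin subunit Cct6a was at least 15.7-fold lower (adjusted p = 0.0155), the neuronal RNA-binding gene Elavl2 at least 9.1-fold and the bone endopeptidase Phex at least 8.35-fold. Another Elavl2 probe was near the pool at -0.27 and was not called (adjusted p = 0.0514). For Bnc1, Dlx2, Ott, Ssxb1, Rars and Myl1 the bounds lay between 6.3-fold and 7.02-fold. Of 7 Schwann cell genes 2 were higher and of 5 adipocyte genes 2, against 9.64% of all genes. Those of Schwann cells were the factor Sox10 (2.85, 3.08 and 3.70) and the neurotrophin receptor Ngfr (2.14, 2.48 and 2.11). Another Ngfr probe had a mean of 1.17 and was not called (adjusted p = 0.0681). Those of adipocytes were the fatty acid carrier Fabp4 (6.50, 7.05 and 3.99) and the lipid droplet protein Plin1 (1.20, 1.07 and 2.77).

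For context, the same ratios were compared with those of the 6 marker-negative arrays in 1 limma fit over all 9 arrays. In it 1.33% of genes were higher and 1.18% lower in the marker-positive cells. The marker-negative arrays also share a sample number, another than that of the marker-positive arrays, and nothing names separate mice. These p-values too reflect array-to-array spread alone, possibly technical. Of the 205 genes named here with a value, 31 were higher and 13 lower than in those arrays, while a p that misses the threshold does not show that the fractions are alike. F13a1 was higher than in the marker-negative cells by 8.0 (SE 0.62, adjusted p = 0.000376), and its marker-negative ratios ran from -1.94 to 0.80. The resident macrophage genes Cd163 and Mrc1 were higher by 5.93 (SE 0.25, adjusted p = 1.07e-05) and by 6.01 (SE 0.38, adjusted p = 0.000109), with marker-negative ratios from -0.19 to 0.58 and from -0.30 to 0.52. For these genes no marker-negative array reached the lowest marker-positive one. Hbb-bt was high in both fractions, with a difference of -2.04 (SE 0.36, adjusted p = 0.0194), with marker-negative ratios from 8.82 to 10.47. Among the sort genes the differences were 3.93 (SE 0.65, adjusted p = 0.0141) for Ly6a, 2.06 (SE 0.36, adjusted p = 0.0182) for Cd44, 3.45 (SE 0.78, adjusted p = 0.0498) for Kit and -0.44 (SE 0.63, adjusted p = 0.787) for Prom1, of which the first 3 passed. The call of Kit was lost when any array other than marker-negative replicate 3 was left out, with adjusted p-values of 0.0674 to 0.137. Slides 1 and 2 held both fractions, and within them the differences of 44 of the 44 genes had the same sign. They were 9.57 and 8.11 for F13a1, 5.61 and 5.66 for Cd163, 5.10 and 5.40 for Ly6a and 3.95 and 2.53 for Kit. With slide as a fixed block F13a1 (adjusted p = 0.0184), Cd163 (0.0113), Mrc1 (0.0153) and Ly6a (0.0307) stayed past the threshold, and Hbb-bt (0.165), Cd44 (0.172) and Kit (0.0977) did not.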

How the data were processed

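Spot intensity values of 3 marker-positive arrays (and, for context, 6 marker-negative arrays) were taken from the deposited scanner files, which hold mean and local background intensity per channel, not normalized, and processed intensity values, per the file headers. The submitters' processing notes name Feature Extraction 10.7 as the scanner software. A deposited table of the authors' own comparison was not used here.

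Mean intensities were background-corrected with limma 3.58.1 in R 4.3.3 (normexp, median local background, offset 50) and log2 ratios of Cy5 over Cy3 were normalized by within-array loess, in which control spots and outlier spots had weight 0. Outlier spots were dropped and spots of a probe averaged. Of 41174 probes, 32259 were tested: those well above background on at least 2 of the 3 arrays in 1 of the channels. The mean ratio of the 3 arrays was tested against 0, two-sided, with limma's moderated test (trend and robust), adjusted by Benjamini-Hochberg over all tested probes, threshold 0.05. The spread of the pool's own sampling is not part of this test. A gene stands for its tested probe with the highest mean signal. Of 7239 genes with several tested probes, 151 had probes called in opposite directions. Probes were named through RefSeq GRCm38.p6: 22951 by the systematic name, 124 by accession, 6584 by current symbol and 3065 by synonym, and 8450 kept the name in the file. Probe coordinates are those of the files, build mm7:NCBI35:Aug2005, and promoter coordinates those of GRCm38.p6.

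Genes named are the 15 largest and 15 lowest called ratios with a current symbol, the same sign on all 3 arrays and both channels measured on all, the 12 largest bounds each way, the 4 sort genes, and list members; a few list members are not reported here but stay in the counts. The members and the lists were chosen with earlier results of these data known, so they are no independent evidence. Lists are described by counts and medians, without a test. Replicate numbers follow the order of deposit. Alternatives covered background correction, normalization, filter, variance model, weights, slide, probe rule and each array left out. The fit was tested on simulated data with large changes, after a first simulation with smaller changes and another error model gave no calls among the changed probes. Plots were drawn with matplotlib 3.10.9.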

Additional observations from a re-analysis of the deposited data

Results flagged for a closer look

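Of the 205 genes named with a value, 44 differed between the marker-positive and the marker-negative cells by the test of that difference itself (limma, adjusted p under 0.05 over all genes tested), each relative to the same pool. Each fraction's arrays share a sample number, so the adjusted p reflects array-to-array spread alone, possibly technical. Values are differences in log2 ratio, marker-positive minus marker-negative. Differences of genes of macrophages and other myeloid cells were 8.0 for F13a1, 6.01 for Mrc1, 5.93 for Cd163, 5.89 for Fcna, 5.94 for Clec10a, 5.84 for Mmp9, 4.88 for Lyz2, 4.56 for Folr2, 3.54 for Timd4, 3.80 for Ccr2 and 1.58 for Csf3r. In the eosinophil-associated ribonucleases, whose probes may not separate them, they were 6.58 for Ear1, 5.81 for Rnase2a and 4.46 for Ear10. The mast cell genes gave 5.73 for Cpa3, 3.81 for Fcer1a and 2.45 for Tpsb2, and chemokine and complement genes 6.10 for Ccl8, 4.06 for Cxcl9, 3.40 for Ccl9, 3.93 for Cfp and 3.92 for Cfb. The sort genes gave 3.93 for Ly6a, 3.45 for Kit and 2.06 for Cd44, the proteins of which defined the fractions. The other positive differences were 3.36 for Ifitm3, 1.34 for Jchain, 1.76 for Klf2, 1.96 for Mfap4, 2.02 for Trp63 and 3.99 for Vwf.

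On the negative side, products of the prostate epithelium, with Fam25c and 9530002B09Rik, gave -5.24 for Msmb, -3.14 for Defb1, -3.18 for Fam25c, -2.88 for 9530002B09Rik, -2.28 for Tmprss2, -2.27 for Azgp1 and -1.99 for Pbsn. The globin genes and the rest gave -2.18 for Asns, -4.81 for Cd3g, -3.34 for Hba-a1, -2.04 for Hbb-bt, -1.58 for Pik3r1 and -2.24 for Sapcd2. Every one of these differences kept its sign when each of the 9 arrays was left out in turn. With slide as a fixed block, 28 of the 44 lost their call.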

How the results depend on the processing

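The counts of genes higher and lower than the pool stayed within 1.5 times of 2106 and 3064 with processed signals, plain or no background subtraction, a normexp offset of 16, median centring, scaling between arrays, no detection filter, no trend or robust variance, and averaging over a gene's probes. With array weights, which were 2.46, 1.81 and 0.224 for arrays 1, 2 and 3, they were 6945 higher and 6119 lower. All 9 arrays in 1 fit gave 5172 higher, and with slide as a random block 5141. A tested minimum log2 ratio of 1 left 355 higher and 163 lower, and requiring both channels above background on all 3 arrays left 1825 lower, from fewer genes tested. Leaving out each array in turn gave 616 to 5785 higher and 402 to 5524 lower, the largest counts without array 3. The cause of the changes with array weights and the 9-array fits was not tested.

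Of 172 called genes named, median centring kept the sign of all and ended the call of 22. It moved the array medians of all probes to 0.10, 0.07 and -0.39, against 0.01, 0.02 and -0.04 with loess. Uncalled genes near the pool or split between arrays changed sign: with array weights Cd34 (0.88) and Col3a1 (1.09), with median centring E2f1 (-0.0275), and with the mean of probes E2f1 (-0.0258), Krt8 (-0.0507) and Ptprc (-0.27). Leaving out each array in turn gave Cd34 -1.29 to 1.14, Col3a1 -2.14 to 1.41, Krt8 -0.48 to 1.50 and Pcna -0.22 to 0.43. The 547 genes that differed from the marker-negative arrays became 214 with median centring, 249 with slide as a fixed block and 165 to 1556 with each of the 9 arrays left out.

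No paired analysis was possible because the labels give the arrays no replicate numbers to pair by; slides were used as blocks instead, as given above. The few arrays limit the precision, and a dim cell channel, most of all on array 3, limits what can be read below the pool.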
